A study of Homo sapiens with 4 samples.

Results

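The laminin chain genes LAMA3, LAMA5, LAMB1, LAMB2, LAMB3 and LAMC1 carried 700 of the 158922 crosslink sites listed for PDCD4 and 218 of the 111361 sites listed for the IgG control. They were taken by name, as every listed site whose gene label held one of these 6 symbols out of 14387 genes in both lists, and no member site carried a second gene label. Laminins are the large glycoproteins of the basement membrane, the sheet of extracellular matrix under an epithelium. Each laminin is a cross-shaped trimer of an alpha, a beta and a gamma chain, which come from separate genes and are joined through a coiled coil in the endoplasmic reticulum before secretion. The globular end of the alpha chain holds the sites for integrins and dystroglycan, and the short arms of the chains join laminins to each other and to nidogen. In breast and skin epithelium, LAMA3 and LAMB3 are chains of laminin-332, the ligand beneath hemidesmosomes, while LAMA5 pairs with LAMB1 or LAMB2 and with LAMC1.

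PDCD4 is an RNA-binding protein with tumour suppressor function, and the question of the experiment was which RNAs it contacts. Wild-type MCF10A cells, an established untransformed breast epithelial line grown without any knockdown, were cross-linked with ultraviolet light, and RNA was recovered with PDCD4 antibody (2 replicates) or with isotype IgG (2 replicates). In iCLIP the protein fragment left on the RNA halts reverse transcription, and the end of each cDNA therefore places a contact to within 1 nt. The deposited data are 1 list of sites for each antibody, with the replicates pooled and a score per site that counts its cDNAs. There is therefore no spread between replicates and no test between the antibodies, and all intervals here are 95% intervals of the counting error only. The PDCD4 list held 409308 cDNAs and the IgG list 276139, so levels are given per 10000 cDNAs of a list. The amount of an RNA and how readily it was cross-linked cannot be told apart in these values. All 9 epithelial marker genes examined, among them KRT5, TP63 and CDH1, had PDCD4 sites, and none of 9 markers of blood, endothelium, fibroblasts or liver had a site in either list.

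The strongest PDCD4 sites of the members are shown first, since the values below refer to them. Each line is the RNA strand of the gene as DNA letters in the GRCh38 genome, 14 nt to either side of the site, and capitals mark the listed PDCD4 sites in the window. LAMA3 exon 42 lies at chr18:23890013-23890041 on the plus strand, and its site held 9 cDNAs. LAMA5 intron 40 lies at chr20:62326629-62326657 on the minus strand and its site also held 9 cDNAs, the most of any LAMA5 site. LAMB1 exon 33 lies at chr7:107924331-107924359 and LAMB2 exon 23 at chr3:49124241-49124269, both on the minus strand with 6 cDNAs. LAMB3 intron 14 lies at chr1:209624949-209624977 on the minus strand with 7 cDNAs, and LAMC1 at chr1:183103474-183103502 on the plus strand, in coding sequence, with 5.
LAMA3 exon 42: gtgcaccgggatatTtcgggaatccccag
LAMA5 intron 40: gcacccaggtccctCatggacctcagctc
LAMB1 exon 33: aaaaaagtagaaaaTttaattgccaaaaa
LAMB2 exon 23: ctgccgtgccggctTtggagggcggactt
LAMB3 intron 14: cttttccttcttttTtccttccttccttc
LAMC1 coding: gcaaaccgcggcttCatcaggacaggagg

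Both alpha chains took a larger share of the PDCD4 list than of the IgG list, but to different degrees. LAMA5, the alpha chain of adult epithelial basement membranes, had 932 cDNAs from 313 sites with PDCD4 antibody and 180 from 59 sites with IgG. This came to 22.8 per 10000 cDNAs (21.3 to 24.3) against 6.52 (5.60 to 7.54), a log2 ratio of 1.80 (1.57 to 2.04), and the 2 intervals did not overlap. By PDCD4 cDNAs LAMA5 ranked 8 among the 7299 genes with at least 20 cDNAs over both lists. LAMA3, the alpha chain of hemidesmosomal laminin, had 251 cDNAs at 98 sites against 119 at 48 sites. Its level of 6.13 per 10000 (5.40 to 6.94) lay above the IgG level of 4.31 (3.57 to 5.16), with a log2 ratio of 0.50 (0.19 to 0.84). This excess was not kept when clusters within 20 nt were counted (0.18, -0.37 to 0.75) or when only sites with more than 5 cDNAs were taken, of which each list had 1 (-1.44, -3.03 to 0.40). The LAMA3 ratio was lower than that of LAMA5 by more than the counting error, with a difference of -1.30 on the log2 scale (-1.69 to -0.91).

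The 3 beta chains all had log2 ratios above 1 with very unequal numbers of cDNAs. LAMB3, the beta partner of LAMA3, had 401 cDNAs from 134 sites with PDCD4 antibody and 122 from 41 sites with IgG, or 9.80 per 10000 (8.86 to 10.8) against 4.42 (3.67 to 5.28). Its log2 ratio was 1.14 (0.85 to 1.45). LAMB1, a widely used beta chain, had 215 cDNAs at 87 sites against 55 at 21 sites, with 5.25 per 10000 (4.57 to 6.0) against 1.99 (1.5 to 2.59) and a log2 ratio of 1.38 (0.97 to 1.85). LAMB2, its close relative, had few sites. It had 32 cDNAs at 9 sites against 4 cDNAs at 2 sites, and its log2 ratio of 2.15 had an interval from 0.94 to 4.39. The ratio of LAMB2 therefore could not be told from that of LAMB1, LAMB3 or LAMA5 at this depth. LAMB1 minus LAMB2, for example, came to -1.03 (-2.59 to 0.53) without the added cDNA, which all differences between ratios leave out.

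The gamma chain differed from the others. LAMC1, the gamma chain of most laminins, had 135 cDNAs from 59 sites with PDCD4 antibody and 103 from 47 sites with IgG. Its level was 3.30 per 10000 (2.77 to 3.90) against 3.73 (3.04 to 4.52), so that the intervals overlapped and the log2 ratio was -0.18 (-0.56 to 0.21). Summed by chain type, the log2 ratio was 1.41 for alpha (1.23 to 1.60), 1.27 for beta (1.03 to 1.52) and -0.18 for gamma. Alpha and beta differed by 0.14 (-0.16 to 0.44), which is within the counting error. Alpha exceeded gamma by 1.59 (1.18 to 2.01) and beta exceeded gamma by 1.45 (1.01 to 1.89). Gamma here is LAMC1 alone, and LAMA5 held 932 of the 1183 alpha cDNAs. LAMA3, the other alpha chain, exceeded LAMC1 by 0.69 (0.20 to 1.17). Counted as sites, the intervals of LAMA3 (0.004 to 1.05) and LAMC1 (-0.76 to 0.40) overlapped. All members together had 1966 cDNAs against 583 and a log2 ratio of 1.18 (1.05 to 1.32), and without LAMA5, which held the most cDNAs, the ratio was 0.79 (0.62 to 0.96).

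**Figure D1:**
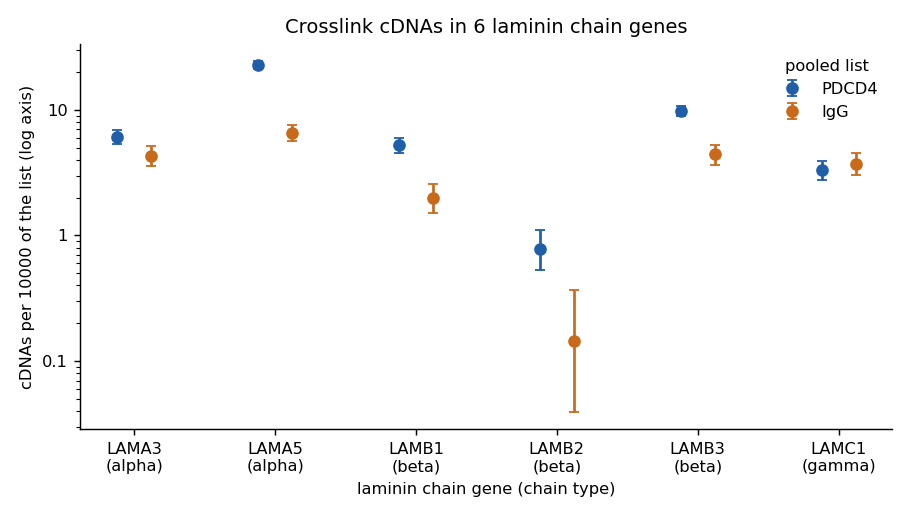
Summed cDNAs of each laminin chain gene per 10000 cDNAs of its list, on a log axis, for the pooled PDCD4 list (blue) and the pooled IgG list (orange). Bars are 95% Poisson intervals of the counts, and they overlap between the lists for LAMC1 only.

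Against all genes, the members were high but not extreme. A log2 ratio of 1 or more was found for 4 of the 6 members and for 16.4% of the 7299 genes with at least 20 cDNAs in both lists together. A ratio of -1 or less was found for none of the members and for 16% of these genes. The median over the members was 1.26 and the median over all genes was -0.09. From the highest ratio downwards LAMB2 ranked 321, LAMA5 491, LAMB1 765, LAMB3 1019, LAMA3 2065 and LAMC1 3909. The 6 genes were not drawn at random and are described here by these counts alone.

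**Figure D2:**
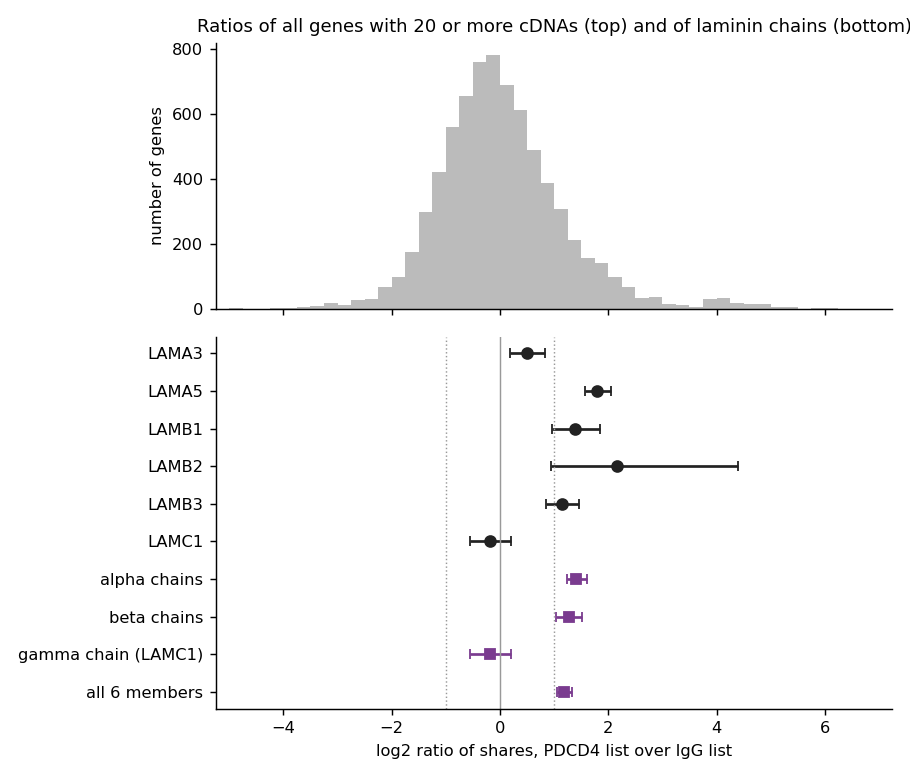
Top, the log2 ratio of shares (PDCD4 list over IgG list, 1 cDNA added) for the 7299 genes with at least 20 cDNAs, as a histogram. Bottom, the same ratio for the laminin chain genes (circles) and their sums (squares) with 95% counting intervals, where LAMC1 sits near 0 and the other members to its right.

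The study's methods keep only sites with more than 5 cDNAs, and this threshold left few laminin sites. In the PDCD4 list 21 sites with 143 cDNAs remained, of which LAMA5 had 13 sites with 91 cDNAs and LAMB3 had 5 sites with 31. LAMA3, LAMB1 and LAMB2 kept 1 site each, with 9, 6 and 6 cDNAs, and LAMC1 kept none. In the IgG list 4 sites remained, 2 in LAMA5 with 12 cDNAs in all and 1 each in LAMA3 and LAMB1 with 6 cDNAs. At this threshold the log2 ratio of LAMA5 was 0.87 (0.09 to 1.97) and that of all members 0.57 (-0.01 to 1.31), against totals of 19332 and 4980 cDNAs in the lists. Only LAMA5 and LAMB3 still had 20 cDNAs, and LAMB3 had no IgG site left. Of the 157 genes with 20 cDNAs above the threshold, 51% had a ratio of 1 or more and 21% of -1 or less, and their median was 1.33, above the ratio of LAMA5. LAMB3, with no IgG site, is past 1 by the same rule of 1 added cDNA, so that 1 of the 2 members tested there was called. No laminin site in either list had more than 10 cDNAs. Sites above the threshold thus held 143 of the members' 1966 PDCD4 cDNAs, while 41.4% of their PDCD4 sites had 1 or 2 cDNAs and 39.1% had 3.

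The laminin sites fell in coding sequence more often than sites of the lists at large. Of the members' PDCD4 sites 38.0% lay in coding sequence (34.5 to 41.7), against 20.9% of the whole PDCD4 list, and 50% lay in introns, against 49.6%. The IgG list showed the same order at a lower level, with 20.6% coding (15.8 to 26.5) for the members and 9.72% for the whole list. Only 5.43% of the members' PDCD4 sites lay in 3′UTRs, against 21.1% of the list. The members differed among themselves. Coding sequence held 67.3% of the PDCD4 sites of LAMA3, 45.8% of LAMC1, 40.2% of LAMB1, 31.0% of LAMA5 and 26.9% of LAMB3, while introns held 58.8% of those of LAMA5 and 63.4% of those of LAMB3. A further 26 sites of LAMA5 and 16 of LAMB1 lay in exons that the annotation gives to non-coding transcripts of the same genes.

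**Figure D3:**
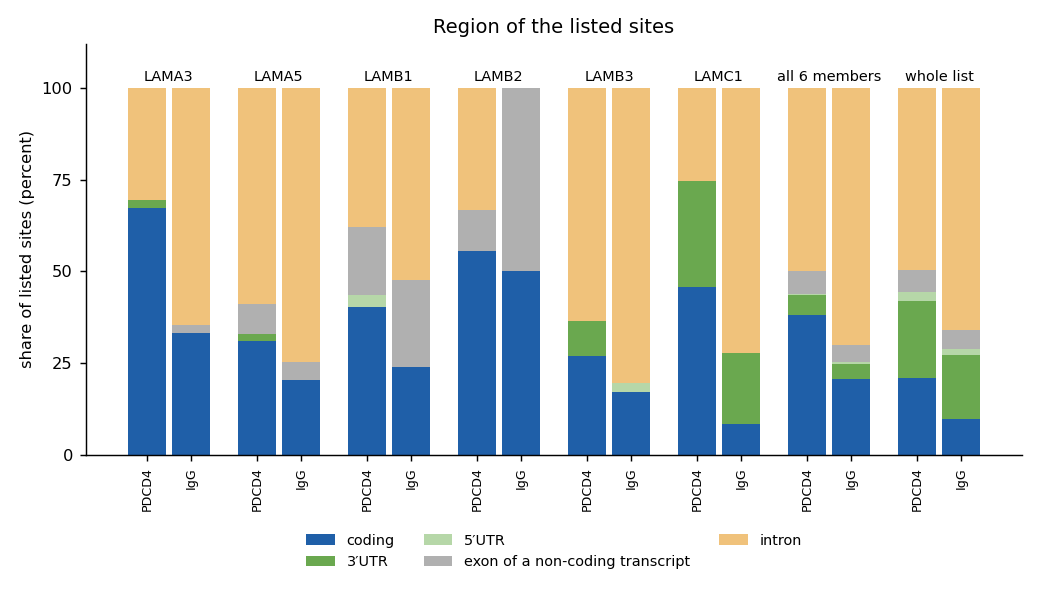
Share of the listed sites of each gene, of all 6 members and of the whole list in each annotated region, for PDCD4 and IgG side by side. Coding sequence takes 67.3% of the PDCD4 sites of LAMA3, and introns take 72.3% of the IgG sites of LAMC1 but 25.4% of its PDCD4 sites. LAMB2 has only 9 PDCD4 and 2 IgG sites.

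Within coding sequence the gamma chain was no longer the exception. LAMC1 had 64 coding cDNAs with PDCD4 antibody and 8 with IgG, a log2 ratio of 2.28 (1.37 to 3.70), beside 2.39 for LAMA5 (1.93 to 2.95), 2.19 for LAMB1 (1.41 to 3.30) and 1.86 for LAMB3 (1.22 to 2.68). LAMA3 had the lowest coding ratio, 1.23 (0.78 to 1.74), from 169 against 48 cDNAs. LAMB2, with 19 against 2 coding cDNAs, had a ratio of 2.17 (0.63 to 5.83). Coding sites of all genes together had a ratio of 1.11, so the members' 753 coding cDNAs against 128 exceeded the coding part of the list by 0.87 (0.61 to 1.16). LAMA3 alone exceeded it by 0.12 (-0.33 to 0.64), which is within the counting error. Counted as sites against the coding part of the lists, LAMC1 had 27 against 4 and exceeded it by 0.87 (-0.38 to 3.11). By sites all members together exceeded it by 0.92 (0.49 to 1.44), and LAMA5, with 1.30 (0.53 to 2.40), was the only single member whose interval lay above 0.

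Intronic ratios of the members lay on both sides of 0. Intronic cDNAs of all genes had a log2 ratio of -0.44. LAMA5 had 538 intronic cDNAs against 135, a ratio of 1.42 (1.15 to 1.71), LAMB1 80 against 26 with 1.02 (0.40 to 1.75), and LAMB3 255 against 99 with 0.79 (0.46 to 1.15). LAMA3 had 76 against 68 with -0.41 (-0.90 to 0.09), close to the list. LAMC1 had 33 intronic cDNAs against 73, a ratio of -1.69 (-2.35 to -1.10), and was the only member whose interval lay below that of the list. Its first intron, 79193 nt long, held 31 of the 34 intronic IgG sites and 8 of the 15 intronic PDCD4 sites. The value of LAMC1 near 0 over the whole gene thus joined a high coding ratio and a low intronic one.

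**Figure D4:**
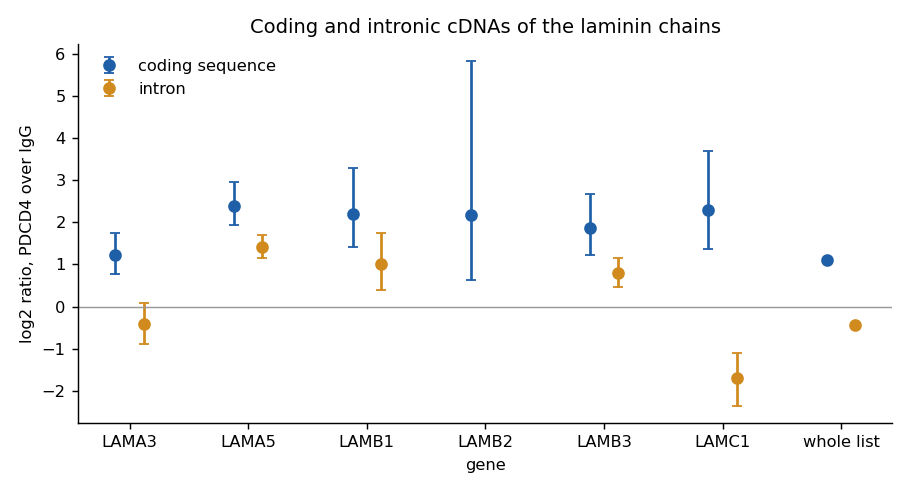
Log2 ratio of PDCD4 over IgG (shares of the list totals) for coding cDNAs (blue) and intronic cDNAs (orange) of each member and of the whole list, with 95% counting intervals. The coding ratio is above 0 in every member, and the intronic ratio runs from -1.69 in LAMC1 to 1.42 in LAMA5. LAMB2 had no intronic IgG site and has no intronic point.

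The members also differed in their 3′UTRs, where cDNAs were few. LAMB3 had 34 cDNAs in its 3′UTR and LAMA5 19 in the PDCD4 list, and no IgG site was listed in either. LAMC1, whose 3′UTR of 2802 nt is the longest of the members, had 38 cDNAs against 22, a log2 ratio of 0.19 (-0.57 to 1.05). No 3′UTR site was listed for LAMB1 or LAMB2.

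The intronic sites of LAMA5 and LAMB3 were dense for the length of the introns. LAMA5 had 4.08 intronic PDCD4 sites per kb of intron and LAMB3 2.58, against a median of 0.113 over 6500 protein-coding genes. Their IgG sites were dense as well, with 0.976 and 1.0 per kb against a median of 0.105. LAMB2 had 0.584, LAMB1 0.543, LAMC1 0.132 and LAMA3 0.119 intronic sites per kb. The counts per intron that follow take every site between the exons of the reference transcript. They include sites in exons of other transcripts, which the densities above leave out. In LAMA5, 209 such sites lay in 31 of 79 introns, against the 184 intronic sites behind its density. Intron 2, of 9148 nt, had the most with 51 sites and 140 cDNAs, and intron 41, of only 761 nt, had 27 sites and 78 cDNAs. In LAMB3, sites lay in 18 of 22 introns, most of them in intron 5 with 20 sites and in intron 10 with 16. In LAMB1, intron 24 alone, of 10867 nt, held 29 of the 51 sites between the exons of the reference transcript. Of the 46 IgG sites of LAMA5 counted in this way, 16 lay in intron 6 and 7 in intron 2. Both introns also held PDCD4 sites.

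Part of the intronic signal of LAMA5 lay in repeated sequence. Its largest cluster was a run of 12 sites with 31 cDNAs in intron 28, at chr20:62332036-62332070, which falls in a stretch of T. The middle of this cluster, at chr20:62332039-62332067 on the minus strand, is printed with its 8 listed sites in capitals.
LAMA5 intron 28: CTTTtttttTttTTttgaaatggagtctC
For 28 of the 313 PDCD4 sites of LAMA5, all intronic, the 30 nt after the site occur more than once in the genome, and for none of its 59 IgG sites. Without these sites the log2 ratio of LAMA5 was 1.68. In LAMB3 intron 14 the strongest PDCD4 site shown above, with 7 cDNAs, lay 7 nt from an IgG site with 5 cDNAs in the same run of C and T. Over all members 660 of the 700 PDCD4 sites and 211 of the 218 IgG sites were followed by 30 nt found once in the genome.

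Per length of exon the members kept a different order from that of their totals. In the PDCD4 list LAMB3 had 0.768 exonic cDNAs per 10000 per kb (0.648 to 0.903) and LAMA5 0.674 (0.609 to 0.743), which overlapped. LAMA3 and LAMC1 followed, both with 0.295, then LAMB1 with 0.177 (0.149 to 0.210) and LAMB2 with 0.0819 (0.0519 to 0.123). The median over 6540 protein-coding genes was 0.0579. The length used is that of all annotated exons of a gene merged, which in LAMB1 is 18592 nt, beside 5650 nt for its reference transcript. By the length of the reference transcript LAMB1 ranked 3, ahead of LAMA3 and LAMC1, so its low place depends on the length chosen. In the IgG list the exonic levels per length of LAMC1, LAMA3 and LAMA5 lay within 0.114 to 0.129, and LAMB3 was at 0.179 (0.114 to 0.269). The interval of LAMB3 overlapped theirs.

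LAMA3 showed a one-sided distribution along its transcript. The gene makes a long form and a short form, LAMA3A, which starts from an internal promoter and is the chain of the hemidesmosomal laminin. On the long transcript of 75 exons, the start of LAMA3A splits the exonic length nearly evenly, into 5229 nt before it and 5422 nt after it. Of the 68 exonic PDCD4 sites of the gene, only 6 (15 cDNAs) lay before the start and 62 (160 cDNAs) after it. The IgG list had 1 site before and 16 after. Of these 62, 5 sites with 12 cDNAs lay in the first exon of LAMA3A itself, which the long transcript lacks and which had no IgG site. Of the intronic sites 12 lay before and 18 after the start in the PDCD4 list, and 9 and 22 in the IgG list. Since the gene spans 184 kb before the start and 83.2 kb after it, intronic sites too were denser after it with both antibodies. The strongest LAMA3 site shown above, in exon 42 at codon 1774 of the long form, lies in the part that both forms share.

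**Figure D5:**
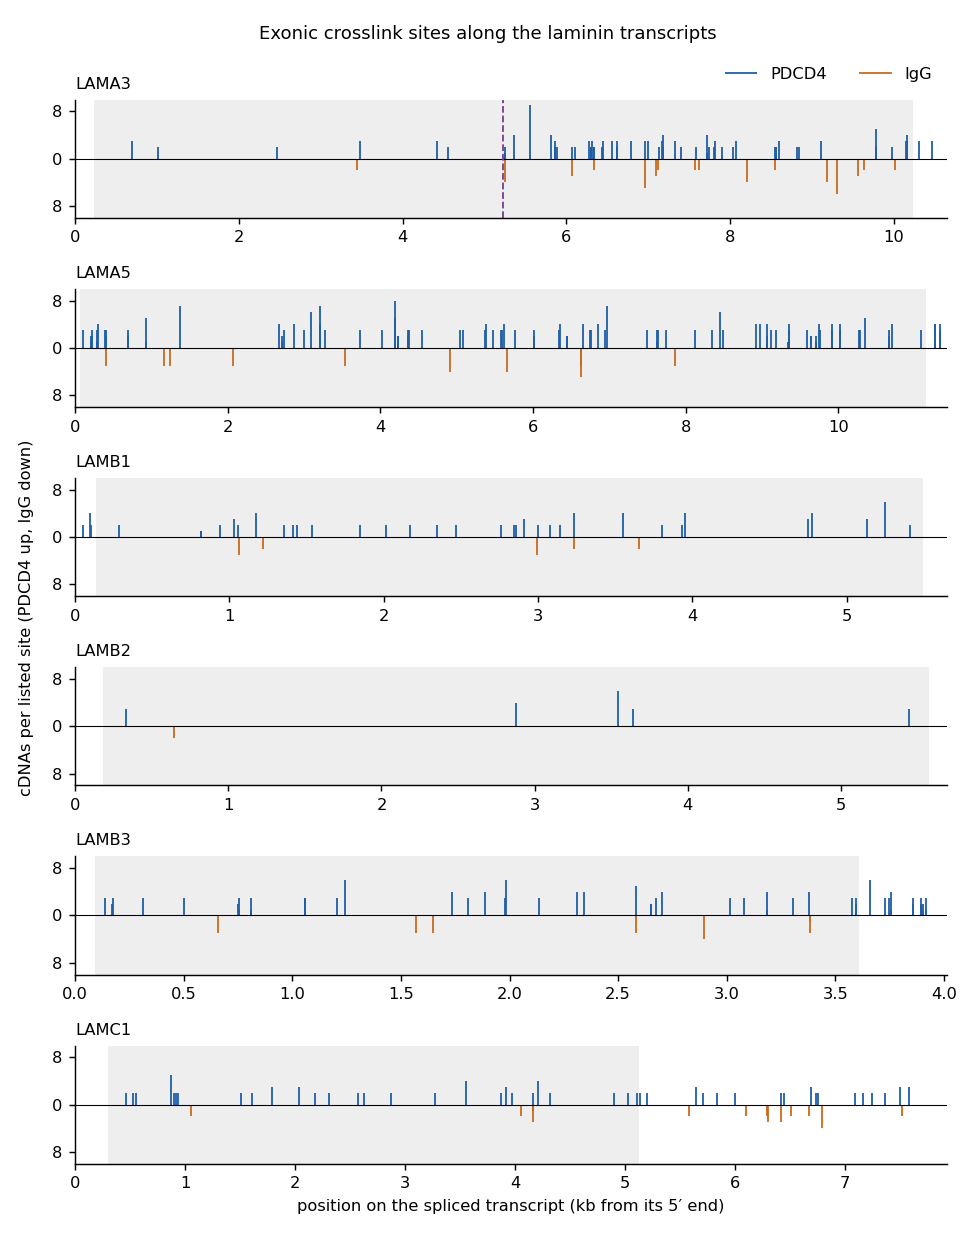
Listed exonic sites along the spliced transcript of each member, with cDNAs per site drawn upwards for PDCD4 and downwards for IgG. Grey marks the coding sequence and the dashed line in LAMA3 marks the start of the short form LAMA3A, beyond which most exonic PDCD4 sites of this gene lie. The 5 sites in the first exon of LAMA3A are not on this transcript and are not drawn.

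In the other chains the coding PDCD4 sites were not gathered at 1 end. LAMB2 had only 5 of them, and LAMA5 had none between codons 435 and 868. Over 3 equal parts of the coding sequence, from its start, LAMA5 had 28, 32 and 37 PDCD4 sites, LAMB3 14, 8 and 14, LAMC1 10, 7 and 10, and LAMB1 12, 13 and 8. Over all members 39.4% of the coding sites lay in the last part (33.6 to 45.4), against 33.3% in the whole list, and without LAMA3 the share was 35.4%. Sites were found in 45 of 80 exons of LAMA5, 30 of 75 of LAMA3, 22 of 34 of LAMB1, 15 of 23 of LAMB3 and 15 of 28 of LAMC1, but in 5 of 32 of LAMB2. The exon with the most cDNAs held 22 in LAMA5 and 17 in LAMA3, in both the last exon, and 8 in LAMB1, in exon 2. In LAMB3 and LAMC1 the last exon, which holds the 3′UTR, had 42 and 44.

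Coding sites gathered near the starts of exons. Of the members' coding PDCD4 sites 49.0% lay within the first 50 nt of an exon (127 of 259, 43.0 to 55.1), whereas 32.9% of the members' coding positions lie there. For the whole PDCD4 list the share was 36.8%. In the IgG list the members had 45.5% (20 of 44, 31.7 to 59.9) and the whole list 35.8%, so the antibodies were not distinguishable in this respect. Of the 11 coding PDCD4 sites with more than 5 cDNAs on the reference transcripts, 10 lay in the first 50 nt of their exon, against 29.1% of such sites in the whole list. Comparing the first with the last 50 nt of exons of at least 100 nt, the members had 123 PDCD4 sites against 15, a log2 ratio of 2.95 (2.26 to 3.92), and 19 IgG sites against 7, a ratio of 1.32 (0.13 to 2.93). LAMA3 had 34 against 2, LAMA5 44 against 7, LAMB1 20 against 0 and LAMB3 17 against 2. LAMC1 had 7 against 3, with an interval that spans 0 (-0.91 to 3.81), and LAMB2 had 1 against 1. All protein-coding genes had 3.59 with PDCD4 antibody and 3.0 with IgG, so by this ratio the members were not above the genes at large. Their share of PDCD4 sites in the first 50 nt was above that of the list, at 49.0% against 36.8%. The share of coding positions lying there was not computed for the whole list.

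The coding sites of LAMA5 with the most cDNAs illustrate this position, and 5 of the 6 with more than 5 cDNAs are printed because they lie early in the exon. All are on the minus strand of chromosome 20, and capitals again mark listed PDCD4 sites. Exon 25 is at chr20:62333464-62333492 and exon 33 at chr20:62329236-62329264, and in both the strongest site was nucleotide 4 of the exon, with 6 and 8 cDNAs, so that these windows begin in the preceding intron. Exon 26 is at chr20:62333215-62333243 (7 cDNAs at nucleotide 15), exon 62 at chr20:62314412-62314440 (6 cDNAs at nucleotide 15) and exon 10 at chr20:62346179-62346207 (7 cDNAs at nucleotide 23).
LAMA5 exon 10: tgcgagtccgacttCacggatggcacctg
LAMA5 exon 25: ccaccctgcaggacTacgtggttctgctg
LAMA5 exon 26: ctgcctcctctaCaCaCacctccccctgg
LAMA5 exon 33: tcaccccctaggatTatgtaCtcgtggtc
LAMA5 exon 62: gccactggggactaCatgggtgtgtctct
The letters GGANTA stand in the windows of exons 25, 33 and 62, on the strand of the gene. These are 3 of the 6 windows of LAMA5 coding sites with more than 5 cDNAs. In exons 25 and 33 the first G of the letters is the last base of the intron. The letters were picked after these windows had been seen. They occur in 2.25% of the 888 coding windows of the same length around PDCD4 sites with more than 5 cDNAs and in 1.79% of all 33222. Among all 97 coding sites of LAMA5 they occurred in 4.12% (1.62 to 10.1), so most coding sites of LAMA5 lacked them.

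The bases at the sites differed between the members. At coding PDCD4 sites of the members C was found at 38.0% and T at 27.1% (22.1 to 32.7), against 33.2% and 34.4% for coding sites of the whole list. LAMA5 stood out with C at 50.5% and T at 20.6% of its 97 coding sites, where the 29 nt around a site were 64.5% G or C. LAMA3, by contrast, had A at 33.3% and T at 27.3% of 66 coding sites, with 44.9% G or C around them. In introns T was found at 42.0% of the members' PDCD4 sites (36.9 to 47.2), against 50.1% of the list. A run of TTTTT, searched on the strand of the gene, was found in none of the members' 266 coding windows and in 16% of their 350 intronic windows, against 3.0% and 20.6% in the whole list. Among the intronic windows it was in 33.3% of 33 for LAMB1 (19.8 to 50.4), 13.6% of 184 for LAMA5 and 10.6% of 85 for LAMB3.

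Few positions in these genes were listed for both PDCD4 and IgG. The overlap counts given here were not made over the whole lists, so they say nothing particular to the laminin genes. The methods describe a subtraction of IgG crosslink sites from the PDCD4 data, and 2 positions, 1 in LAMA3 and 1 in LAMC1, were in both lists. Whether the deposited PDCD4 list was made before or after this step is not settled, so the overlap and the ratios may be affected by it, which was not tested. Without the positions in both lists every ratio of a gene or chain type stayed within its interval. Of the 65 exonic IgG sites of the members, 20 lay within 20 nt of a PDCD4 site, as did 9 of the 153 intronic ones. Of the 350 exonic PDCD4 sites, 23 lay within 20 nt of an IgG site. Joined within 20 nt, the 313 PDCD4 sites of LAMA5 formed 193 clusters, the 134 of LAMB3 formed 98 and the 98 of LAMA3 formed 70. IgG sites formed 47 clusters from 59 in LAMA5, 34 from 41 in LAMB3 and 47 from 48 in LAMA3. In LAMC1 the 59 PDCD4 sites formed 57 clusters and the 47 IgG sites 41, so that neither antibody had the closer sites in every member.

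Other laminin genes had few sites or none. LAMA1, an alpha chain, had 6 cDNAs against 2 and LAMB4, a beta chain, had 3 with no IgG site listed. LAMA2, LAMA4 and LAMC3 had no site in either list. By cDNAs the alpha and beta chain of laminin-332 had unequal ratios, with LAMB3 at 1.14 and LAMA3 at 0.50. LAMA3 minus LAMB3 came to -0.64 (-1.07 to -0.21). Counted as sites, LAMB3 had 1.17 (0.68 to 1.74) and LAMA3 0.50 (0.004 to 1.05), and these intervals overlapped.

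Receptors and linkers of laminin were examined as a group. All 12 had sites in both lists, and 4 of the 11 with at least 20 cDNAs had a log2 ratio of 1 or more, beside the 16.4% of all genes given above. These were ITGA3 with 1.44 (1.16 to 1.74) and ITGB4 with 1.32 (1.03 to 1.63), an integrin alpha and beta chain that each help to hold the cell to laminin-332, CD151 with 1.60 (0.75 to 2.79), a tetraspanin bound to such integrins, and PLEC with 3.90 (3.69 to 4.12), which links hemidesmosomes to keratin filaments. ITGA6, ITGB1 and DAG1, the gene of dystroglycan, had ratios of -0.15, 0.00 and -0.04. SDC4, a syndecan, was at -1.24 (-1.95 to -0.58). The median of the 11 was 0.32, against -0.09 over all genes.

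Of 11 genes for other components of the basement membrane 9 had PDCD4 sites. A log2 ratio of 1 or more, with 1 cDNA added, was found for 4 of these 9, beside 16.4% of all genes. The median of the 9 was 0.99, against -0.09 over all genes. AGRN, the proteoglycan agrin that binds laminin, had 1.42 (1.16 to 1.70), and COL4A2, a collagen IV chain, had 1.56 (1.17 to 2.0), whereas its partner COL4A1 had 0.14 (-0.47 to 0.81). HSPG2, the gene of perlecan, had 325 cDNAs against 110 and a ratio of 0.99 (0.68 to 1.32). COL18A1 had 22 cDNAs against 3, a ratio of 1.96 (0.57 to 4.69), and COL7A1, the anchoring fibril collagen, had 36 with no IgG site listed. COL4A5 lay on the other side with -0.79 (-1.14 to -0.45). No site was listed for the nidogen genes NID1 and NID2.

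The genes closest to LAMA5 and LAMB3 were sought by their pair of log2 levels in the 2 lists. Those nearest to LAMA5 were ACTB (1079 PDCD4 and 179 IgG cDNAs, distance 0.21), HSP90AA1 (862 and 148, 0.30) and MIRLET7BHG (1133 and 195, 0.30). Those nearest to LAMB3 were DLG5 (370 and 118, distance 0.13), ITGB4 (439 and 118, 0.14) and ANPEP (358 and 116, 0.18). With 2 values per gene, such nearness describes levels only.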

How the data were processed

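Crosslink sites were measured by iCLIP in MCF10A cells. The authors mapped against Ensembl release 88 (GRCh38), called sites with iCount and deposited 1 list for each antibody, with 2 replicates merged. The deposited score is a raw count of cDNAs at 1 nt without normalization. The lists hold sites that passed the peak calling of iCount. Every listed site was used, with scores greater than 5 as the alternative. The 6 members, the partner and marker lists and the named genes were chosen with earlier results of these data known. One gene of the partner lists is not reported here. Sites were placed on GENCODE release 44 (GRCh38) by strand, with coding sequence before 3′UTR, 5′UTR, non-coding exon and intron. Exon numbers, codons and positions refer to 1 reference transcript per gene. Ratios compare shares of the lists after adding 1 cDNA. Intervals are exact binomial (Clopper-Pearson) for ratios, Poisson for levels and Wilson for shares. Differences between 2 ratios leave out the added cDNA and have intervals from their summed counting variances. No test was run, as each antibody is 1 pooled list. How reads were collapsed to cDNAs is not given in the sources used here, and intervals cover counting error only. On simulated counts for the 7299 genes of the PDCD4 over IgG comparison, genes raised 4-fold gave a median log2 ratio of 1.97 and the intervals covered the true value in 96.4%. These counts were drawn as independent Poisson numbers, which is the counting error that the intervals assume. The check therefore concerns the calculation only, and not cDNAs grouped at sites or spread between replicates. Alternatives were score thresholds, numbers of sites, pseudocounts, totals, gene assignment, region order, merged sites and window sizes. Scripts ran under Python 3.11.15 (scipy 1.17.1, numpy 2.4.6, pandas 2.3.3, with figures from matplotlib 3.10.9).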

Additional observations from a re-analysis of the deposited data

How the results depend on the processing

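No paired analysis was possible because the replicates of each antibody were merged into 1 list before deposition, and for the same reason no replicate could be left out. Of 165 recomputed values, 132 stayed within the interval of the reported value, kept their rank or, for a count, stayed within 1.5 times, 31 moved outside it and 2 reversed. With scores greater than 5 the log2 ratios of LAMA3 and LAMB1 reversed to -1.44 and -1.96, each resting on 1 site per list, and those of LAMA5, the alpha chains, the beta chains and all members moved to 0.87, 0.45, 0.70 and 0.57. With the same threshold the coding and intronic shares of the PDCD4 sites were 52.4% and 38.1%, the intronic share of the IgG sites was 50%, and the last part of the coding sequence held 18.2% of 11 PDCD4 and 100% of 1 IgG coding sites. Against the totals of the same region, scores greater than 5 gave -2.64 for LAMA3 and 0.27 for all members in coding sequence and 0.95 for LAMA5 in introns. No ratio is given at this threshold for LAMB2, LAMB3 and LAMC1, which had no IgG site left, or for any member above 10, and the number of genes with a ratio of 1 or more fell from 1198 to 80 as fewer genes were tested. It was 819 with a pseudocount of 5.

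Counting clusters within 20 nt gave 0.18 for LAMA3, 1.09 for the alpha chains and 1.00 for all members. Leaving out LAMA5, an alternative chosen after seeing the data, gave 0.79 for all members. With introns taken before exons the coding share of the PDCD4 sites was 33.9% and the intronic shares were 60.1% for PDCD4 and 78.4% for IgG, and reading regions from 1 transcript of each gene gave 57% intronic sites for PDCD4. The last of 2 equal parts of the coding sequence, in place of the last of 3, held 60.6% of the PDCD4 and 68.2% of the IgG coding sites, and without LAMA3, also chosen after seeing the data, the last of 3 parts held 28.6% of the IgG sites. Exon windows of 100 nt, which only long exons can hold, gave a log2 ratio of 1.00 between exon starts and ends. In the order per exonic length, scores greater than 5 put LAMB2 at rank 3, LAMA3 at 4 and LAMC1 at 6, and the length of a single transcript put LAMB1 at rank 3, LAMA3 at 4 and LAMC1 at 5. LAMB3 and LAMA5 stayed first and second in these 2 settings. The other alternatives (numbers of sites, pseudocounts, totals without the mitochondrial genome or the largest genes, shared positions, gene bodies and repeated sequence) moved no ratio of a gene or chain type outside its interval. The number of cDNAs limits LAMB2 most, and pooled lists give no error between cultures.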
